A study of Mus musculus with 21 samples.

Results

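Mmp14 and Sdc1 encode proteins of the cell surface that act on the extracellular matrix, and both genes carried regions with less immunoprecipitated methylated DNA in intestinal adenoma than in normal intestine. The regions were chosen by the measured coverage of adenoma against normal intestine, since they were taken from the authors' lists of 500 bp windows and merged differentially methylated regions (DMRs) wherever a listed region overlapped the gene body or the 1000 bp upstream of its start. This gave 9 windows merged into 6 DMRs, 3 in each gene, out of 17690 windows and 13980 merged DMRs in the whole series. All 9 windows and all 6 DMRs stood on the hypomethylated list, and 0 hypermethylated windows fell in either gene, beside 0.109% and 0.0577% of all 500 bp windows of the genome that were listed as hypomethylated and hypermethylated. The listing itself compared adenoma with normal intestine, so the values of that contrast are given below as a description and without a test.

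MMP14 is a matrix metalloproteinase anchored in the plasma membrane. It cleaves fibrillar collagen and other matrix proteins at the cell edge and activates the proform of MMP2 together with the inhibitor TIMP2. SDC1, or syndecan-1, is the main transmembrane heparan sulphate proteoglycan of simple epithelia, where its sugar chains bind growth factors, Wnt ligands and matrix proteins, and its ectodomain can be shed from the cell by metalloproteinases, MMP14 among them. DNA methylation in mammals sits mostly on cytosines of CpG dinucleotides, and MeDIP-seq sequences the DNA fragments that an antibody against 5-methylcytosine pulls down.

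The MeDIP-seq samples came from the ileum of male mice on the C57BL/6J (B6) background, aged 15 to 19 weeks. They were 3 samples of normal intestine from wild type mice (B6 normal, B1 to B3), 3 of normal intestine from APCMin mice (N4 to N6), which carry a germline truncating Min allele of Apc, and 5 single adenomas cut out of APCMin mice (Ad4, Ad4-1, Ad5, Ad6 and Ad7). N4, Ad4 and Ad4-1 shared 1 animal, N5 and Ad5 another and N6 and Ad6 a further one, so the 5 adenomas came from 4 mice. All samples were pieces of whole tissue, in which a different mixture of cells and a different methylation per cell cannot be told apart. The libraries held 13878615 to 26297510 uniquely aligned reads, with the adenomas at 13878615 to 21175049 and the normal samples at 18065841 to 26297510, and 3 input libraries of DNA that was not immunoprecipitated, from B3, N4 and Ad7, held 3228908 to 5931425. Values are in rpm, the mean coverage of a window by reads extended to 300 nt, scaled to the uniquely aligned reads of the library. At the lowest and highest depth a value of 0.5 rpm over 500 bp stands for about 11.6 and 21.9 fragments, and its relative counting error is 29.4% and 21.4%, so single values below this are coarse. Counting errors leave out variation between animals.

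Mmp14 lies on the plus strand of chr14:55050441-55060095 (mm9) with 10 exons, and Sdc1 on the plus strand of chr12:8778129-8800521 with 5 exons. The first Mmp14 DMR, the promoter DMR, covered chr14:55049751-55050250, which runs from -690 to -191 bp relative to the transcription start and held 11 CpG sites. The exon 4 DMR, at chr14:55055251-55056000, joined 2 windows and held 15 CpG sites; it took in the end of intron 3, the whole of exon 4 and the beginning of intron 4. The intron 5 DMR, at chr14:55057001-55057500 with 9 CpG sites, lay wholly within intron 5. All 3 Sdc1 DMRs lay in intron 1, a stretch of 17705 bp between the first exon, which encodes the signal peptide, and the rest of the coding sequence. The proximal DMR, at chr12:8781751-8782750, began 3622 bp after the start, joined 3 windows and held 18 CpG sites. The middle DMR, at chr12:8788001-8788500, held 9 CpG sites, and the distal DMR, at chr12:8792251-8792750, held 8.

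The stretches below lie in the best covered DMR of each gene and in the Mmp14 promoter, and are shown because the results turn on them. They were read from the mm9 genome 5′ to 3′ on the plus strand with each CpG in capitals. For Mmp14 they are the 300 bases of the promoter DMR nearest the start (chr14:55049951-55050250, 6 CpG sites) and the 250 bases that both windows of the exon 4 DMR share (chr14:55055501-55055750, 9 CpG sites, coding sequence of exon 4). For Sdc1 the stretch is the 250 bases common to the first and second windows of the proximal DMR (chr12:8782001-8782250, 8 CpG sites, intron 1).
Mmp14 promoter DMR: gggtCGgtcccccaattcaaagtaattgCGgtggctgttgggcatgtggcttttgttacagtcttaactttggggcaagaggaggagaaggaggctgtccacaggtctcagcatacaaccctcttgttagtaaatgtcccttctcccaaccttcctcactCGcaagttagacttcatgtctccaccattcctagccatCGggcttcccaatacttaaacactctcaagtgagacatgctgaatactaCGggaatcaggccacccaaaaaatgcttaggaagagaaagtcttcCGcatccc
Mmp14 exon 4 DMR: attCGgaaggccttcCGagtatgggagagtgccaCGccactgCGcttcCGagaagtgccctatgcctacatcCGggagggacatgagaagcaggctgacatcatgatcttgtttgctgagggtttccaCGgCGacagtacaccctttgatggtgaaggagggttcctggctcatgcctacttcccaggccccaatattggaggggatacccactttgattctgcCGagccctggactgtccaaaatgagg
Sdc1 proximal DMR: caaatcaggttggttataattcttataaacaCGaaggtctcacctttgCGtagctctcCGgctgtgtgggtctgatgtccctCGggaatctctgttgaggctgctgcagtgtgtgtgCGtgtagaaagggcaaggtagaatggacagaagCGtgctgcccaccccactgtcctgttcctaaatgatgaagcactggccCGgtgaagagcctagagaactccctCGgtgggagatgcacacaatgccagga

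The listed windows lay outside the parts of both genes that are densest in CpG sites. In the 45 windows of the authors' 250 bp grid over Mmp14 and its promoter the densest held 47 CpG sites, from 560 to 1059 bp after the start, while its 4 listed windows held 9 to 13. In the 96 windows over Sdc1 the densest held 46, from 1122 to 1621 bp after the start, and its 5 listed windows held 8 to 12. In Mmp14 10 windows and in Sdc1 12 windows held more CpG sites than any listed window of the gene, and none of these was listed; their coverage was not analysed here. The number of listed windows in each gene follows from how the genes were chosen, and nothing is read from it.

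**Figure D1:**
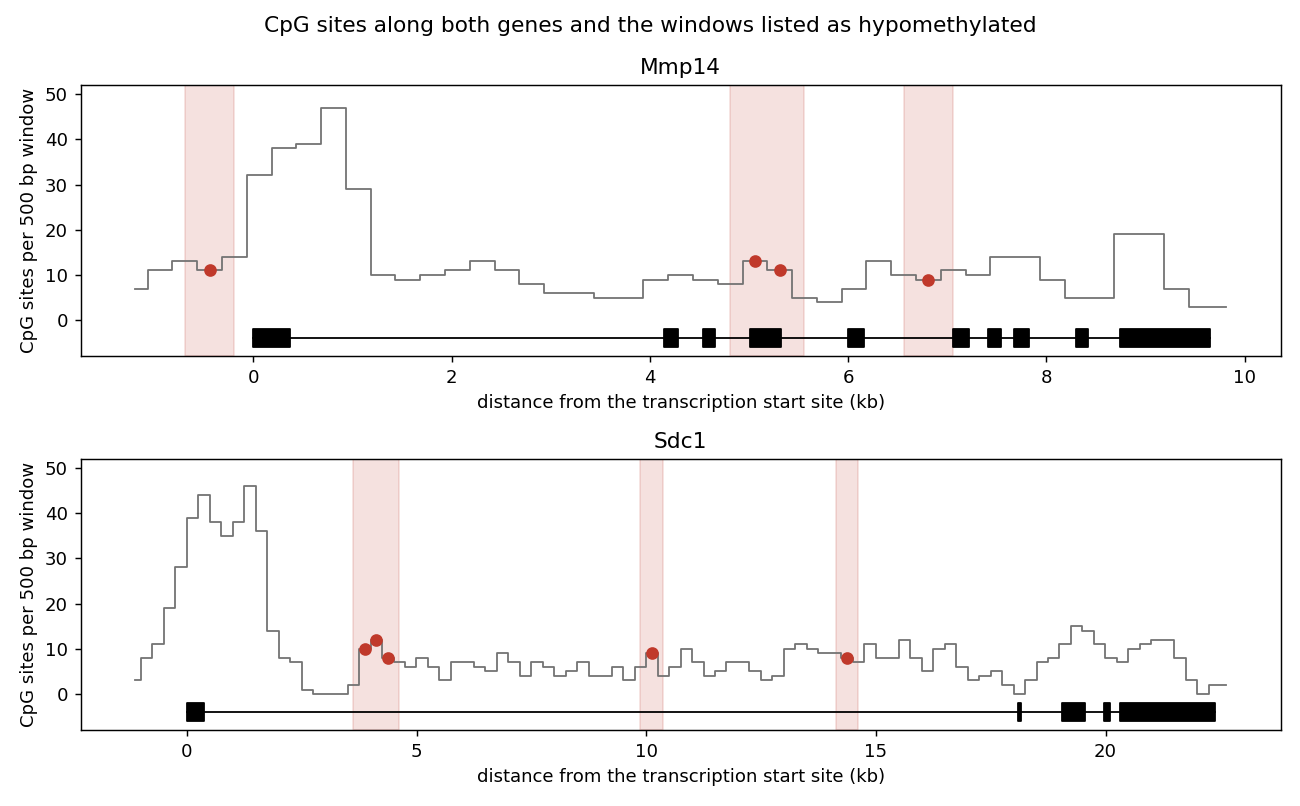
CpG sites in each 500 bp window along Mmp14 (top) and Sdc1 (bottom) against the distance of the window centre from the transcription start in kb; black boxes are exons, red dots the listed hypomethylated windows and pink bands the merged DMRs. The CpG-dense stretch around each start, with up to 47 and 46 sites per window, holds no red dot, and all 3 Sdc1 bands lie in the long first intron.

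The largest relative difference of the 6 regions was at the Sdc1 proximal DMR, where adenoma kept 25.6% of the coverage of normal intestine. The B6 normal samples read 0.64, 0.76 and 0.58 rpm, and the APCMin normal samples read 0.35, 0.51 and 0.40 rpm. The 5 adenomas read 0.12, 0.12, 0.12, 0.18 and 0.15 rpm. Every adenoma lay below every normal sample, from a highest adenoma of 0.18 rpm to a lowest normal sample of 0.35 rpm, and the B6 samples were the highest. The group means were 0.540 ± 0.153 rpm in normal intestine (SD, n = 6) and 0.138 ± 0.0268 rpm in adenoma (SD, n = 5), a log2 ratio of -1.65 on the log2(rpm + 0.05) scale. Ranked by this ratio the region was number 6 of the 8845 hypomethylated DMRs, whose median was -0.64.

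Within the proximal DMR the log2 ratio differed between its 3 windows, of which neighbours share 250 bp. In window 1 the adenoma values rest on about 2.31 to 4.24 fragments each, so the order of the windows is coarse, and it was not tested. Its first window averaged 0.545 ± 0.146 rpm in normal intestine (SD, n = 6) and 0.104 ± 0.0219 rpm in adenoma (SD, n = 5), a log2 ratio of -1.95. The second window, which holds the most CpG sites of the 3 with 12, averaged 0.660 ± 0.231 and 0.186 ± 0.0351 rpm, a log2 ratio of -1.59. In window 3, with 8 CpG sites, the averages were 0.350 ± 0.160 and 0.138 ± 0.0268 rpm, a log2 ratio of -1.09, and here APCMin sample N4 at 0.17 rpm fell just under the highest adenoma at 0.18 rpm. The deposited value of a merged DMR equals the per-sample median of its windows, to within 0.005 rpm, in all 2299 hypomethylated DMRs built from several windows.

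The study designed an oligonucleotide pair for bisulfite sequencing of Sdc1, which after conversion of unmethylated cytosines matches a single place in the gene, chr12:8781988-8782399, inside the proximal DMR. The product of 412 bp spans 9 CpG sites, all between the primers, and takes in the whole of the Sdc1 stretch printed above. The primers are shown because they mark where single-site methylation could be read. The study's bisulfite results were not analysed here.
Sdc1 bisulfite forward primer: ttagattgaaaaataaattaggttgg
Sdc1 bisulfite reverse primer: aataaaaatcaatctcaaacaaaac

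The other DMRs of Sdc1 were shallower. At the middle DMR the B6 normal samples read 0.19, 0.43 and 0.57 rpm, the APCMin normal samples 0.17, 0.23 and 0.22 rpm, and the adenomas 0.13, 0.15, 0.19, 0.15 and 0.04 rpm. Adenoma Ad5 at 0.19 rpm equalled B1 and lay above N4, so the groups overlapped. The means were 0.302 ± 0.161 rpm in normal intestine (SD, n = 6) and 0.132 ± 0.0559 rpm in adenoma (SD, n = 5), and B2 and B3 stood well above all other samples. The log2 ratio was -0.95 against all normal samples and -0.50 against APCMin normal alone. Of the 6 DMRs it had the lowest mean in normal intestine, the closest to the 0.25 rpm that the study required of the higher group. At the distal DMR the B6 normal samples read 0.30, 0.35 and 0.45 rpm, the APCMin normal samples 0.30, 0.32 and 0.44 rpm, and the adenomas 0.11, 0.25, 0.29, 0.23 and 0.19 rpm. All adenomas were below all normal samples there, but by only 0.29 against 0.30 rpm at the edge, with means of 0.214 ± 0.0684 rpm (SD, n = 5) and 0.360 ± 0.0684 rpm (SD, n = 6) and a log2 ratio of -0.64.

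Among the 3 listed DMRs of Mmp14 the coverage was highest over exon 4, which encodes part of the catalytic domain of the protease. The B6 normal samples read 1.16, 1.48 and 1.23 rpm and the APCMin normal samples 1.20, 1.06 and 0.79 rpm. The adenomas read 0.65, 0.53, 0.54, 0.67 and 0.61 rpm. No adenoma reached the lowest normal sample, N6, and the adenomas spanned a narrow range. The means were 1.15 ± 0.226 rpm in normal intestine (SD, n = 6) and 0.600 ± 0.0632 rpm in adenoma (SD, n = 5), 1.92-fold apart, with a log2 ratio of -0.89. The region ranked 183 of 8845 hypomethylated DMRs by its signal in normal intestine and 1218 by its log2 ratio, and it is the best covered of the 6, with about 14.1 to 23.6 fragments per 500 bp in each adenoma against 3.46 to 6.35 at the Sdc1 proximal DMR. Both of its windows gave nearly the same ratio, -0.88 and -0.92.

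The Mmp14 promoter DMR was weaker and its groups overlapped. The B6 normal samples read 0.39, 0.34 and 0.20 rpm, the APCMin normal samples 0.28, 0.30 and 0.48 rpm, and the adenomas 0.17, 0.05, 0.20, 0.28 and 0.15 rpm. Ad6 at 0.28 rpm was above B3 and equal to N4, while Ad4-1 at 0.05 rpm stood for about 1.44 fragments. The means were 0.332 ± 0.0964 rpm (SD, n = 6) and 0.170 ± 0.0834 rpm (SD, n = 5), a log2 ratio of -0.79. At the intron 5 DMR, the smallest difference of the 6 by ratio, the B6 normal samples read 0.33, 0.32 and 0.32 rpm, the APCMin normal samples 0.40, 0.34 and 0.34 rpm, and the adenomas 0.19, 0.14, 0.23, 0.21 and 0.32 rpm. There 4 adenomas lay below all normal samples and Ad7 equalled B2 and B3. The means, 0.342 ± 0.0299 rpm (SD, n = 6) and 0.218 ± 0.0661 rpm (SD, n = 5), were 1.57-fold apart, the closest of the 6 to the ratio that the study required; windows just under its limits were not analysed here.

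**Figure D2:**
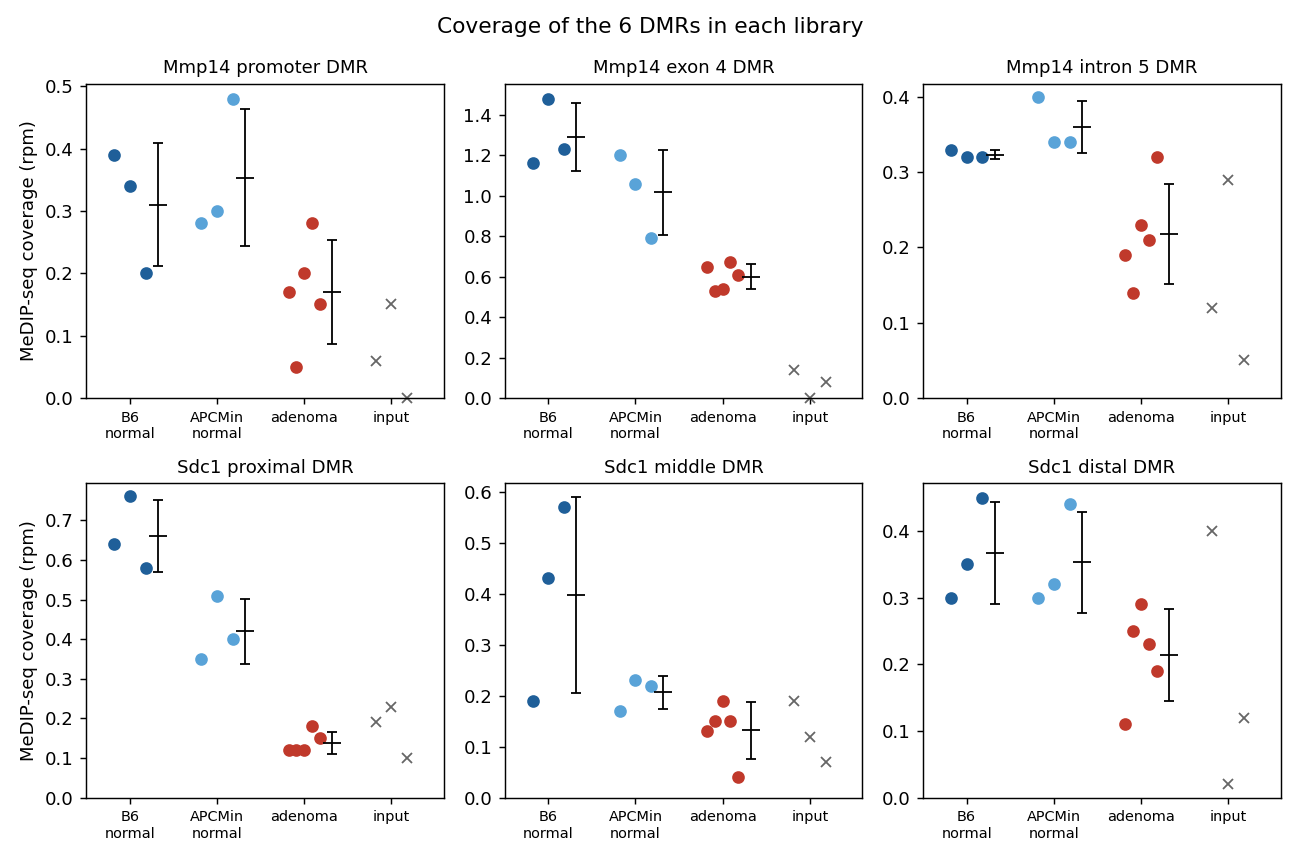
MeDIP-seq coverage in rpm of each library at the 6 DMRs; dots are single samples, the bar beside each group is its mean ± SD, and crosses are the 3 input libraries. At the Mmp14 exon 4, Sdc1 proximal and Sdc1 distal DMRs every adenoma lies below every normal sample; the vertical axes differ between panels.

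Complete separation of all adenomas from all normal samples held at 3 of the 6 DMRs (Mmp14 exon 4, Sdc1 proximal and Sdc1 distal), beside 51.9% of all hypomethylated DMRs, so the 6 stood near the background in this respect. The share rises with length, from 42.8% at 500 bp to 77.3% at 750 bp, the length of the exon 4 DMR, and 78.3% at 1000 bp, that of the proximal DMR. In size, 4 of the 6 had a log2 ratio below the median of all hypomethylated DMRs, the Sdc1 distal DMR was at it and the Mmp14 intron 5 DMR was above it. By length the median ratio was -0.61 at 500 bp, -0.71 at 750 bp and -0.77 at 1000 bp. The CpG counts of the 6 DMRs, 8 to 18, compare with a median of 8 in hypomethylated DMRs of 500 bp, 12 in those of 750 bp and 18 in those of 1000 bp. The Mmp14 exon 4 DMR, with 15 CpG sites in 750 bp, was denser than the median of its length class, and the Sdc1 proximal DMR was at it.

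**Figure D3:**
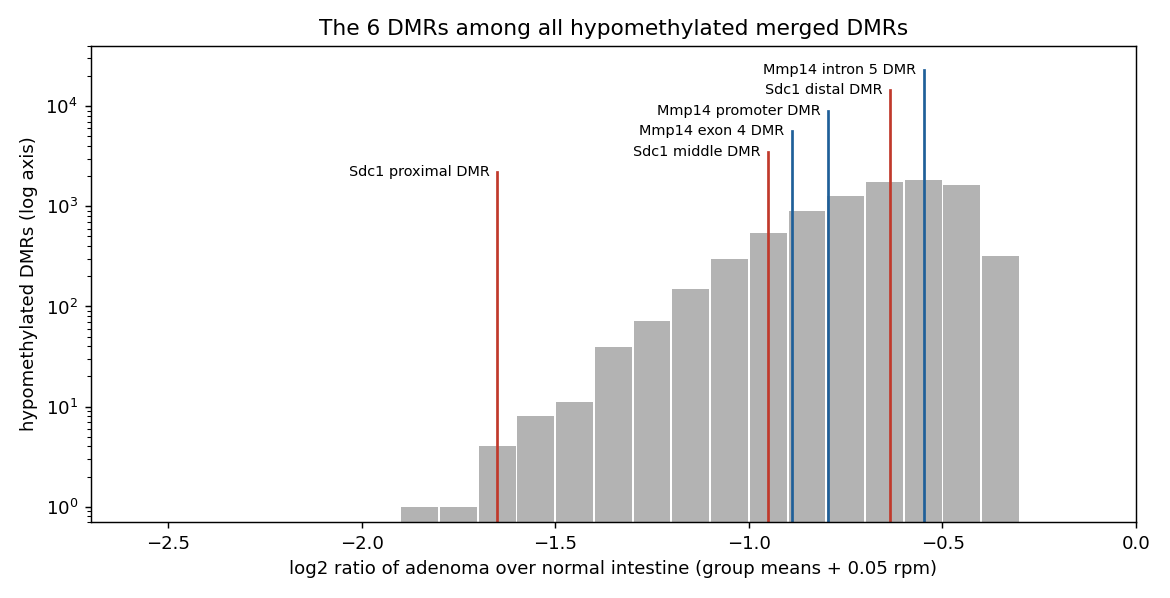
Number of hypomethylated merged DMRs, on a log axis, by the log2 ratio of adenoma over normal intestine in steps of 0.1; vertical lines mark the 6 DMRs of Mmp14 (blue) and Sdc1 (red). The Sdc1 proximal DMR at -1.65 lies in the thin left tail and the other 5, from -0.95 to -0.55, in the body of the distribution.

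The input libraries were far below the MeDIP coverage at the Mmp14 exon 4 DMR, where they read 0.14, 0.00 and 0.08 rpm for B3, N4 and Ad7. Elsewhere they came nearer to it. At the Sdc1 proximal DMR they read 0.19, 0.23 and 0.10 rpm, so the inputs of both normal samples lay above every adenoma's MeDIP value, and at the Sdc1 middle DMR they read 0.19, 0.12 and 0.07 rpm. At the Sdc1 distal DMR the input of B3 reached 0.40 rpm, beside a MeDIP value of 0.45 rpm in B3 and above every adenoma, while the inputs of N4 and Ad7 read 0.02 and 0.12 rpm. At the Mmp14 intron 5 DMR the input of N4 read 0.29 rpm, beside a MeDIP value of 0.40 rpm, and those of B3 and Ad7 read 0.12 and 0.05 rpm. At the Mmp14 promoter DMR the inputs read 0.06, 0.15 and 0.00 rpm. Over the 6 DMRs the input of Ad7 averaged 0.0700 rpm, against 0.183 and 0.135 rpm for B3 and N4, while over all hypomethylated DMRs the 3 inputs averaged 0.152, 0.181 and 0.158 rpm. The inputs are shallow and number 1 per group, so their single values rest on few fragments and their order against MeDIP values is coarse. The part of DNA content in the differences was not tested.

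Coverage was also compared within animals and within samples that share a title number. Sample titles carry a bracketed number whose meaning the labels do not state: B1, B2, N4, Ad4 and Ad4-1 share 4, N5, N6 and Ad5 share 9, B3 and Ad6 share 10, and Ad7 alone has 2. At the Sdc1 proximal DMR the log2 ratio was -1.90 within series 4, -1.57 within 9 and -1.45 within 10, and at the Mmp14 exon 4 DMR it was -1.06, -0.72 and -0.83. In these series each adenoma lay below each normal sample at all 6 DMRs, except at the Mmp14 promoter DMR within series 10, where Ad6 at 0.28 rpm exceeded B3 at 0.20 rpm. Between tissues of 1 animal, every adenoma lay below its own normal intestine at every DMR. The listing used these same samples, so both orders follow largely from how the regions were chosen and are no separate support. How often other hypomethylated DMRs show them was not counted. At the Sdc1 proximal DMR the within-animal log2 differences were -1.23 in animal 4 (its 2 adenomas averaged), -1.72 in animal 5 and -0.97 in animal 6. At the Mmp14 exon 4 DMR they were -0.97, -0.91 and -0.22, with animal 6 reading 0.79 rpm in normal intestine and 0.67 rpm in adenoma.

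Whether normal intestine of APCMin mice already differed from that of B6 mice was asked with limma over all 13980 merged DMRs, on the 6 normal samples and with Benjamini-Hochberg adjustment. The listing did not use this contrast, although its minimum mean in the higher group was taken over these same samples. No DMR was called at an adjusted p of 0.05 (0% of those tested), and at an unadjusted limma p of 0.05 there were 647, or 4.63%, of which 411 were hypomethylated DMRs, or 4.65% of those. The Sdc1 proximal DMR had a log2 difference of -0.60 in APCMin against B6 (SE 0.188, 95% interval -0.99 to -0.21), an unadjusted limma p of 0.00377 and a limma adjusted p of 0.968, so the difference did not hold after adjustment. Its 3 B6 samples all lay above its 3 APCMin samples, as was so at 5.1% of the hypomethylated DMRs, and the APCMin samples in turn lay above all adenomas, as was so for this order at 2.51%. Both means are 0.660 ± 0.0917 rpm in B6 and 0.420 ± 0.0819 rpm in APCMin normal (SD, n = 3 each). With 3 samples against 3 the two-sided exact permutation test gave p = 0.1, the smallest it can give. Within series 4 the B6 samples averaged 0.700 rpm and the APCMin sample read 0.350 rpm.

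The Sdc1 middle DMR is given without a test: it averaged 0.397 ± 0.192 rpm in B6 and 0.207 ± 0.0321 rpm in APCMin normal (SD, n = 3 each), so it passed the study's 0.25 rpm minimum only through the B6 samples, and B1 at 0.19 rpm lay within the APCMin range of 0.17 to 0.23 rpm. None of the other 4 DMRs passed the test. The Sdc1 distal DMR differed by -0.05 (95% interval -0.47 to 0.38, limma adjusted p = 0.999). In Mmp14 the exon 4 DMR differed by -0.34 (95% interval -0.70 to 0.02), the promoter DMR by 0.17 (-0.31 to 0.65) and the intron 5 DMR by 0.13 (-0.26 to 0.53), each with a limma adjusted p of 0.999. The intervals are wide, and the samples do not show that normal intestine of both genotypes was alike at these DMRs. At the intron 5 DMR the 3 APCMin samples, at 0.34 to 0.40 rpm, lay above the 3 B6 samples, at 0.32 to 0.33 rpm, as was so at 3.02% of the hypomethylated DMRs.

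**Figure D4:**
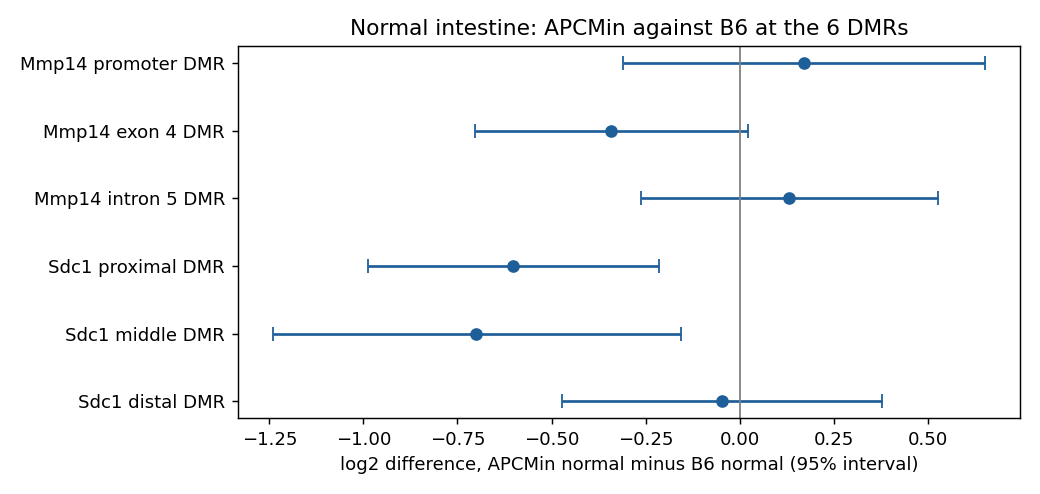
Log2 difference of APCMin normal minus B6 normal intestine at the 6 DMRs, with the limma estimate as a dot and its 95% interval as a bar (3 against 3 samples). The bar of the Sdc1 proximal DMR lies left of 0 before adjustment, and no DMR passed the test after adjustment over 13980; the bar of the Sdc1 middle DMR is a description only, since that DMR passed the listing's minimum mean through B6.

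Other parts of the same system were read from lists of genes. The lists hold 76 protein-coding genes, of which 29 carried a hypomethylated DMR and 9 a hypermethylated one in the body or the 1000 bp upstream, 38.2% and 11.8%. Among all 22225 protein-coding genes the shares were 14.2% and 11.1%, but the listed genes are longer, with a median of 42.9 kb against 15.5 kb. Per Mb of gene and upstream sequence the lists held 5.26 hypomethylated DMRs, beside 4.83 over all genes, and 1.37 hypermethylated ones, beside 3.10. Mmp14 and Sdc1 belong to the lists; without them the remaining 74 genes had 4.64 and 1.37 per Mb. From 1000 bp upstream to 500 bp downstream of the start, 3 of the 76 genes, Mmp14 among them, had a hypomethylated DMR and 0 a hypermethylated one, beside 0.747% and 0.814% of all protein-coding genes.

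Of 23 matrix metalloproteinases, the family of Mmp14, 4 had a hypomethylated DMR and none a hypermethylated one. Besides Mmp14 they were Mmp24, another membrane-anchored member, with 2, and Mmp10 and Mmp28 with 1 each; Mmp2 and Mmp7 had none. Of 5 inhibitors, Timp2, the partner of MMP14 in activating pro-MMP2, had 3 hypomethylated DMRs and Timp4 had 1. Of 10 syndecans and glypicans, the family of Sdc1, 5 had a hypomethylated and 4 a hypermethylated DMR: Sdc3 had 1 of each, Sdc4 had 1 hypermethylated DMR, and Sdc2 had none. Of 3 secreted heparan sulphate proteoglycans, Hspg2 (perlecan) and Agrn (agrin) had 1 hypomethylated DMR each. Of 23 enzymes that build, trim or cut heparan sulphate, 10 had a hypomethylated and 4 a hypermethylated DMR, with Sulf2, an extracellular 6-O-endosulphatase, carrying 5 hypomethylated ones. Of 12 partners and sheddases, 6 had a hypomethylated DMR, among them Cd44 and Ptk7, both substrates of MMP14, with 3 each, and 1, Furin, the convertase that activates pro-MMP14, had a hypermethylated DMR. Among all protein-coding genes 1.76% had 3 or more hypomethylated DMRs. Timp2, Sulf2, Cd44 and Ptk7 are long, at 54672 to 90525 bp against a median of 15.5 kb, so nothing is read from their counts. Gene length differs between the lists, and per Mb the syndecans and glypicans (median length 73.0 kb) held 2.51 hypomethylated DMRs and the heparan sulphate enzymes (median 126.9 kb) 4.08, both under the 4.83 of all protein-coding genes. Their hypermethylated DMRs, at 1.57 and 1.68 per Mb, were also under the 3.10 of all protein-coding genes. The other lists held 7.95 to 21.2 hypomethylated DMRs per Mb on 2 to 12 DMRs each, and 3 of the 7 DMRs of the metalloproteinases were those of Mmp14.

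Beside the members, the list genes with the largest ratios among DMRs with complete separation and at least 0.5 rpm in the higher group were these. Ptk7, a receptor-like pseudokinase, averaged 0.705 ± 0.258 rpm in normal intestine (SD, n = 6) and 0.368 ± 0.0973 rpm in adenoma (SD, n = 5). Hs3st6, a heparan sulphate 3-O-sulphotransferase, averaged 0.540 ± 0.107 and 0.292 ± 0.136 rpm. The hyaluronan receptor gene Cd44 averaged 0.500 ± 0.0844 and 0.280 ± 0.0906 rpm. Sulf2 averaged 0.812 ± 0.159 and 0.470 ± 0.0570 rpm. These 4 DMRs lay inside their genes, and their ratios, from 1.73-fold to 1.92-fold, were below the 3.91-fold of the Sdc1 proximal DMR. Adam17, the sheddase of many surface proteins, and Hspg2 were 1.57-fold and 1.49-fold lower in adenoma. In the other direction only the glypican gene Gpc1 qualified, with 0.398 ± 0.0691 rpm in normal intestine and 0.634 ± 0.106 rpm in adenoma.

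By their profile over the 11 samples, the genes nearest to the Mmp14 exon 4 DMR were Bmp7, Ablim1 and Crb1, with Pearson's r of 0.978, 0.975 and 0.974 on the log2(rpm + 0.05) scale, and 206 merged DMRs had an r over 0.9. Those nearest to the Sdc1 proximal DMR were Arhgef26, Fras1 and Cdc42bpg, with r of 0.968, 0.965 and 0.963, and 345 merged DMRs had an r over 0.9. All 6 had the order of means seen at both of these DMRs, with B6 normal above APCMin normal and APCMin normal above adenoma. They were picked for their likeness to these DMRs, so the shared order follows largely from the choice and nothing is read from it. The r values describe 11 libraries that fall into normal and adenoma groups, a split shared by every listed DMR.

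Short sequence motifs were looked for on both strands of the 6 DMRs after their sequences had been seen. The AP-1 core TGACTCA occurred once, in the Sdc1 proximal DMR, in a part of its window 3 that lies outside the bisulfite product. The TCF/LEF core CTTTGAT occurred in 2 places, both in the Mmp14 exon 4 DMR and both inside the stretch printed above. The other 4 DMRs held neither. Of all 332 hypomethylated DMRs of 1000 bp, 39.8% held TGACTCA, and of all 1926 of 750 bp, 15.3% held CTTTGAT at least once and 1.45% at least in 2 places. The matches are printed with the motif in capitals so that they can be found in the regions.
Mmp14 exon 4 DMR, chr14:55055633-55055661: gacagtacaccCTTTGATggtgaaggagg
Mmp14 exon 4 DMR, chr14:55055702-55055730: ggggatacccaCTTTGATtctgccgagcc
Sdc1 proximal DMR, chr12:8782669-8782697: gtcagctcaagTGACTCActtccaactcc

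Outside the 2 genes the next listed DMRs were also hypomethylated, as were 8845 of the 13980 merged DMRs of the series, so nothing is read from their direction. Downstream of Sdc1 the nearest began 3.73 kb past the gene's end, with 0.580 ± 0.136 rpm in normal intestine (SD, n = 6) and 0.328 ± 0.0779 rpm in adenoma (SD, n = 5), while upstream none was listed for 246.9 kb. Around Mmp14 the nearest lay 12.4 kb downstream, with 0.513 ± 0.0985 and 0.266 ± 0.0615 rpm, and 17.7 kb upstream in Slc7a7, an amino acid transporter gene, with 0.427 ± 0.0463 and 0.258 ± 0.0614 rpm.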

How the data were processed

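Members and gene lists were chosen with earlier results of these data known. The authors aligned MeDIP-seq and input reads to mm9 with Bowtie 0.12.5 and deposited windows and merged DMRs with an rpm value per library, keeping 500 bp windows (step 250 bp) with a Wilcoxon p below 0.01, a ratio past 1.33 and a mean above 0.25 rpm; their deposited ratio and p-value columns were not used. Read totals come from the study's sequencing statistics. Coordinates were matched to GENCODE vM1 genes on NCBIM37, the same build as mm9, and CpG sites and sequences were read from that genome. Log2 ratios are of group means plus 0.05 rpm; fold values and percentages are of group means as they stand. The contrast of normal tissues used limma 3.58.1 (R 4.3.3) with an intensity trend, a threshold of 0.05 and no filter on low values. On simulated data for this contrast over 13980 DMRs it recovered 50 of 50 DMRs changed by -2 and 48 of 50 changed by 1 on the log2 scale, with 13 false calls. The simulation gave every DMR the same spread, the median of the real ones. It therefore checks the calculation and does not show the power at real DMRs, whose spread differs.

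The genes named from the lists were up to 6 per direction with the largest ratio among DMRs of complete separation and at least 0.5 rpm in the higher group, and 3 per member by Pearson's r to its best covered DMR. Adenoma and normal samples with 1 number come from 1 animal by the labels; over 13980 DMRs the correlation of their deviations from the group means was -0.0541 to 0.0323 for 4 such pairs and -0.0320 to 0.0671 for 11 others. RNA-seq expression values were not analysed here. Alternatives covered pseudocounts, left-out samples, the normal group used, within-animal means, medians, the model and the overlap rule.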

Additional observations from a re-analysis of the deposited data

Results flagged for a closer look

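At the Mmp14 intron 5 DMR the APCMin normal sample N4, at 0.40 rpm, stood apart from the other 5 normal samples, which read 0.32 to 0.34 rpm: the gap to its neighbour made up 0.75 of the group's range, above Dixon's 95% limit of 0.625. It was 1 of 22 groups of values examined, and chance alone gives about 1 in 20. Without N4 the log2 ratio of adenoma over normal intestine at this DMR was -0.50, against -0.55 with it.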

How the results depend on the processing

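At all 6 DMRs coverage was lower in adenoma under every alternative run here (the Mmp14 promoter DMR within series 10, given above, was the exception), and 103 of 113 alternative values moved by less than 1 SD. The listing chose the regions by this direction, so its stability is no separate support. Leaving out each sample gave -0.97 to -0.81 at the Mmp14 exon 4 DMR, -0.69 to -0.45 at the intron 5 DMR, -0.99 to -0.61 at the promoter DMR, -1.74 to -1.54 at the Sdc1 proximal DMR, -1.07 to -0.71 at the middle DMR and -0.74 to -0.50 at the distal DMR. A pseudocount of 0.5 rpm shrinks ratios by construction, to -0.31 (promoter), -0.59 (exon 4), -0.23 (intron 5), -0.71 (proximal), -0.34 (middle) and -0.27 (distal). Within series 4 alone the intron 5 DMR gave -0.90 and the promoter DMR -1.27. The middle DMR gave -0.46 by group medians and -0.50 against APCMin normal alone. Against APCMin normal alone the Sdc1 proximal DMR gave -1.32, and its window 3 alone, an alternative chosen after seeing the data, -1.09. In the paired analysis, with the animal as a block, the Sdc1 proximal DMR gave -1.31 and the middle DMR -0.29; the block leaves out the B6 samples and Ad7, and it turned no direction.

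Between APCMin and B6 normal intestine no member was called under any alternative. Leaving out each sample gave -0.47 to -0.18 at the exon 4 DMR, 0.063 to 0.17 at the intron 5 DMR and -0.74 to -0.49 at the Sdc1 proximal DMR, where the adjusted p ranged from 0.707 to 1. The same range at the middle DMR, -1.10 to -0.41, is a description only. The Mmp14 promoter DMR turned sign without B3 (-0.072), without N6 (-0.043) and within series 4 (-0.33, chosen after seeing the data), with a range of -0.072 to 0.34. The Sdc1 distal DMR turned sign without B3 (0.092), N4 (0.047) or N5 (0.0070), with a range of -0.20 to 0.092. The number of DMRs called was 0 to 1 when each sample was left out, the 1 without B1, and 0 otherwise. Of the gene lists, 3 genes had a hypomethylated and 0 a hypermethylated DMR in the promoter, and 8 and 1 had one with a ratio past 2. Both follow from fewer DMRs counted. Past a ratio of 2 these were 10.5% and 1.32% of the list genes, beside 3.42% and 1.09% of all protein-coding genes. The list genes are longer, as given above, so these shares are not alike in gene length. Depth limits the weaker DMRs most.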
